A study of Mus musculus with 44 samples.

Results

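The genes described here are 10 that act in antigen presentation by MHC class I and in the immunoproteasome, out of 55487 genes in the count tables of mouse nucleus accumbens. They are the light chain gene B2m, the classical heavy chain genes H2-K1 and H2-D1, the peptide transporter genes Tap1 and Tap2, the tapasin gene Tapbp, the immunoproteasome subunit genes Psmb8, Psmb9 and Psmb10, and Nlrc5. They were listed by name for their function, and their rows were found by matching Ensembl mouse identifiers to gene symbols. All 10 were found in both tables.

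One table holds 8 libraries of whole accumbens tissue from males, 4 that received HSV-GFP and 4 that received HSV-RXRa-GFP, herpes simplex virus vectors that carry a fluorescent protein alone or together with RXRa. RXRa, the alpha form of the retinoid X receptor, regulates transcription from the nucleus and binds DNA with partner receptors. The other table holds 36 libraries from sorted nuclei of the 2 kinds of striatal projection neuron, called D1 and D2 after the dopamine receptors Drd1 and Drd2. Those animals received AAV9-CAG-DIO-EGFP or AAV9-CAG-DIO-EGFP-P2A-RXRa, adeno-associated virus vectors whose insert needs Cre recombinase. The sorted libraries with a group were D1 female (5 EGFP, 4 RXRa), D1 male (5 and 4), D2 female (4 and 4) and D2 male (5 and 4). Title and vector label of 1 further D2 female library disagree, and it entered no comparison. Bulk animals were all infused with a herpes virus vector and sorted ones with an AAV, controls included. Age, strain, the line that supplies Cre, and the time after infusion are not given in the sources used here. The labels do not say that replicates came from separate animals, so p-values measure the spread between these libraries, which may be technical.

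MHC class I molecules display peptides from inside the cell to CD8 T cells. The proteasome cuts proteins into peptides, the TAP transporter carries these into the endoplasmic reticulum, and tapasin holds the transporter next to the class I molecule while a peptide is loaded onto a heavy chain paired with beta-2 microglobulin. Interferon raises many of these genes together and brings in the immunoproteasome subunits, which replace the constitutive catalytic ones, and NLRC5 is the transactivator of class I genes. In the resting brain, neurons carry little class I, and microglia and endothelium carry more.

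The upstream sequences of B2m and H2-K1 are shown because both genes rose in bulk tissue and both sequences hold motifs of immune transcription factors. They come from RefSeq on GRCm38.p6, run 5′ to 3′ on the gene's strand and end just before the gene's first transcribed base. Capitals mark the core of the ISRE, the element of interferon-activated factors (GAAA, any 2 bases, GAAA), and 2 NF-kB motifs, the heavy chain type GGGATTCCC and the p65 type (GGGA, any 1 base, TTTCC). Both strands were searched.

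B2m, chr2:122147437-122147685, plus strand: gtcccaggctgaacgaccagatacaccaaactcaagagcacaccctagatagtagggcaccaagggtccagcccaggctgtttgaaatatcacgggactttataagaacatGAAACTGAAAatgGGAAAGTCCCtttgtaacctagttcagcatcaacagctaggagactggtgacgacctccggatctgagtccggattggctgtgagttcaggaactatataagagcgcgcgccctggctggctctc

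H2-K1, chr17:34000348-34000597, minus strand: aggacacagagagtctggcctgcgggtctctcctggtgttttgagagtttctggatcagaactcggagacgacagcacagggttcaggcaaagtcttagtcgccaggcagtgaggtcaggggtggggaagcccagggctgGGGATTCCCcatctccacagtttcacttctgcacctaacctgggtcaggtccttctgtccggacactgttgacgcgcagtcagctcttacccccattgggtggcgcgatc

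The B2m sequence holds the ISRE core, and after it the p65-type motif on the other strand. H2-K1 holds GGGATTCCC, the motif long known from class I heavy chain genes. H2-D1 holds the same motif before its RefSeq start, at a place that lies inside the H2-D1 gene as GENCODE annotates it, so it is not upstream of every annotated start. The 30 bases around the motif, which was the reason they were chosen, are equal at 29 positions in H2-K1 and H2-D1.

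H2-K1, chr17:34000438-34000467, minus strand: cccagggctgGGGATTCCCcatctccacag

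H2-D1, chr17:35262914-35262943, plus strand: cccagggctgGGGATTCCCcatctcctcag

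Over 32536 mouse promoters of 250 bases in the same table, 2.98% held the ISRE core, 0.301% held GGGATTCCC and 0.36% held the p65-type motif. Of the 10 genes, 8 were in that table. Of the 250 bases before the RefSeq start, annotated UTRs cover all 250 in Psmb8, Psmb9 and H2-D1, 246 in Tap1 and 244 in Tapbp. They cover 52 in Psmb10 and 1 in B2m, which was trimmed from the sequence shown. In H2-K1 they cover 0 before the start used above and 14 before another RefSeq start. GGGATTCCC was found in 2 of the 8, H2-K1 and H2-D1, and the other 2 motifs in B2m alone. The GAS motif (TTCNNNGAA, where N is any base) was searched as well and was found in 1 of the 8, Psmb8, and in 7.04% of all promoters. The nuclear receptor half-site AGGTCA, one arm of the elements that RXRa binds with its partners, was found in 3 of the 8, H2-K1, H2-D1 and Psmb10, and in 14% of all promoters. A match describes letters and is not a site or a cause. The search took exact letters, so sequences that differ from a motif at any fixed base were not counted. A missing match therefore does not show that an element of that type is absent.

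Of the 10 genes 7 lie on chromosome 17, in the MHC region or next to it. Psmb9 (chr17:34181987-34187764, minus strand) and Tap1 (chr17:34187553-34197225, plus strand) run in opposite directions, and they overlap where each is annotated to start. Psmb8 (chr17:34197721-34201454) and Tap2 (chr17:34203527-34216321) follow on the plus strand. H2-K1 (chr17:33996017-34000347, minus strand), Tapbp (chr17:33915899-33929292, plus strand) and H2-D1 (chr17:35262730-35267499, plus strand) lie within the same region. B2m is at chr2:122147686-122153083 on the plus strand. Psmb10 (chr8:105935735-105938444, minus strand) and Nlrc5 (chr8:94434356-94527272, plus strand) are on chromosome 8. All positions are those of GENCODE M21 on GRCm38. In that annotation 8 of the 10 genes, all but H2-K1 and H2-D1, overlap another gene, and the use of strand in counting is not given in the sources used here, so reads in such overlaps cannot be assigned. H2-D1 shares 4.64% of its transcript, in windows of 100 bases, with another gene, most with H2-Q1, while H2-K1 shares none.

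Library totals ran from 21567565 to 29167142 counts in bulk and from 12211655 to 27757463 in sorted nuclei, so a count of 0 allows at most 0.139 and 0.246 CPM. The vector's RXRa sequence had 0 counts in the 4 bulk GFP libraries and 567 to 914 counts in the 4 RXRa libraries. It had 0 to 17 counts in the 19 sorted EGFP libraries and 1216 to 13017 in the 16 sorted RXRa libraries, which matches the vector labels. In EGFP libraries, 4 of 4 D2 markers were higher in D2 than in D1 nuclei and 3 of 4 D1 markers were lower at an adjusted p under 0.05 (edgeR).

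In bulk tissue all 10 genes had higher mean levels with RXRa than with GFP, by 1.63 to 2.25 fold, and in all 10 every RXRa library lay above every GFP library. Such separation in this direction was seen for 6.64% of the 18579 genes tested. At an adjusted p under 0.05 (edgeR quasi-likelihood test, Benjamini-Hochberg over all genes tested), 5 of the 10 rose: B2m, H2-K1, Tapbp, Psmb10 and Nlrc5. The share of all tested genes called was 3.7%, and 3.01% were called higher. The median log2 fold change of the 10 genes was 0.91, beside -0.02 for all genes tested. The unadjusted p was under 0.05 for all 10, as it was for 21.5% of tested genes. More RNA per cell and more cells of a type that carries these RNAs cannot be told apart in whole tissue.

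The light chain gene B2m had 426, 389.1, 292.7 and 300.7 CPM (counts per 1000000 of the scaled library total) in the GFP libraries 1 to 4. In the RXRa libraries 1 to 4 it had 475.9, 643.1, 542.1 and 636.6 CPM. The 2 sets did not overlap, with GFP 1 the highest control and RXRa 1 the lowest treated library. B2m rose by 0.71 on the log2 scale (SE 0.14, adjusted p = 0.0326, edgeR).

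H2-K1, a heavy chain that binds the loaded peptide, had 516.5, 460.9, 272.9 and 294.4 CPM with GFP and 645.1, 920.7, 694.8 and 865.5 CPM with RXRa. Again GFP 1 and 2 were the high controls, GFP 3 and 4 the low ones, and RXRa 1 the lowest of its group. It rose by 1.02 (SE 0.21, adjusted p = 0.037, edgeR). H2-D1, the other classical heavy chain, had 633.1, 593.3, 367.2 and 393.8 CPM with GFP and 728.3, 1048, 796.1 and 916.5 CPM with RXRa. Its libraries stood in the same order, with a log2 fold change of 0.81 (SE 0.19) and an adjusted p of 0.0518 (edgeR) just past the threshold.

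**Figure D1:**
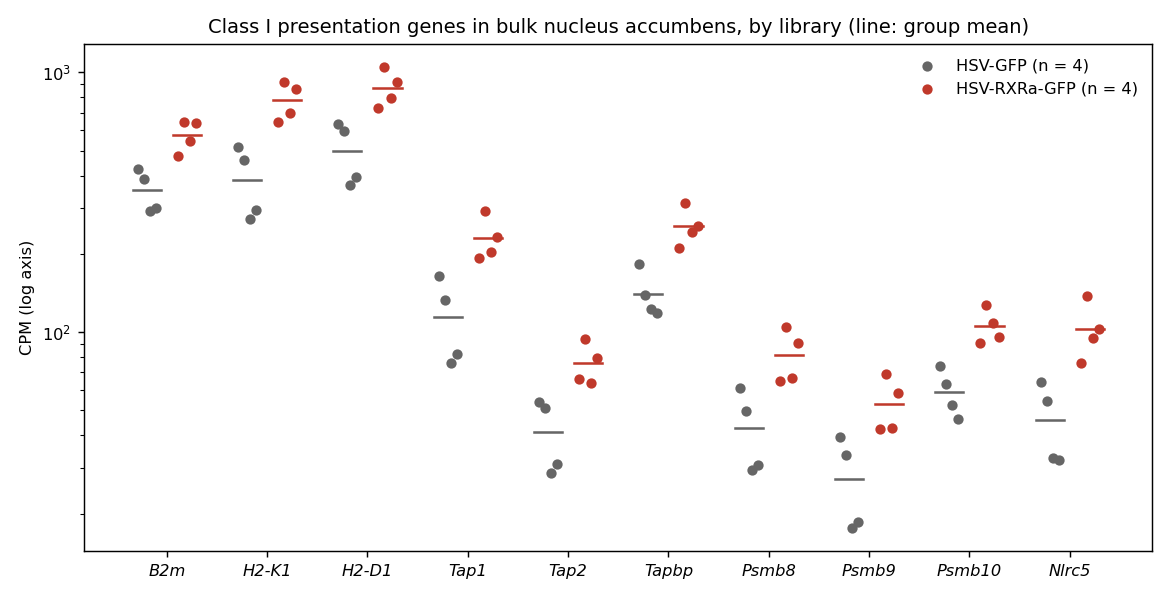
CPM of the 10 genes on a log axis in the 4 HSV-GFP (grey) and 4 HSV-RXRa-GFP (red) libraries of bulk tissue, replicates 1 to 4 from left to right, with a line at each group's mean. In every gene the lowest red point lies above the highest grey point, and GFP 1 and 2 lie above GFP 3 and 4.

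Tap1 and Tap2 encode the paired chains of the peptide transporter. Tap1 had 164.9, 133.1, 76.15 and 82.45 CPM with GFP and 192.1, 292.2, 202.6 and 232.7 CPM with RXRa. Its log2 fold change was 1.01 (SE 0.25, adjusted p = 0.058, edgeR). Tap2 ran from 28.69 to 53.57 CPM with GFP and from 63.5 to 94.01 CPM with RXRa, a log2 fold change of 0.88 (SE 0.22, adjusted p = 0.0602, edgeR). Neither passed the threshold. Tapbp, the gene of tapasin, did.

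Tapbp had 182.4, 138.9, 123 and 117.9 CPM with GFP and 210.8, 315.2, 243.2 and 257.1 CPM with RXRa, and rose by 0.87 (SE 0.16, adjusted p = 0.0223, edgeR). Among the 7 genes of peptide loading and trimming in the endoplasmic reticulum listed beside it, 0 were called in bulk (edgeR) and 2 had an unadjusted p under 0.05. Those 2 were Tapbpl, the tapasin-related gene, with 0.62 (SE 0.19), and Erap1, which trims peptides, with 0.57 (SE 0.16). The other 5, chaperones and quality control enzymes that also serve other glycoproteins, lay between -0.07 (Canx) and 0.11 (Pdia3).

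Psmb8, Psmb9 and Psmb10 encode the catalytic subunits that replace Psmb5, Psmb6 and Psmb7 in the immunoproteasome. Psmb8 had 61.14, 49.54, 29.39 and 30.7 CPM with GFP and 64.68, 104.6, 66.36 and 90.51 CPM with RXRa. RXRa 1 and 3 lay only just above GFP 1, and the log2 fold change of 0.93 (SE 0.25) had an adjusted p of 0.0782 (edgeR). Psmb9 was alike, at 39.3, 33.52, 17.63 and 18.55 CPM with GFP and 42.5, 69.13, 42.64 and 58.06 CPM with RXRa, with a log2 fold change of 0.96 (SE 0.28, adjusted p = 0.0906, edgeR). Psmb10 had 73.75, 63.31, 52.42 and 46.4 CPM with GFP and 90.64, 126.8, 108.8 and 95.73 CPM with RXRa. Psmb10 alone of the 3 subunit genes passed the threshold, rising by 0.84 (SE 0.15, adjusted p = 0.0224, edgeR).

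The constitutive subunits moved little. Their log2 fold changes were -0.07 (SE 0.05) for Psmb5, -0.06 (SE 0.05) for Psmb6 and -0.07 (SE 0.04) for Psmb7, and none was called. Of the 11 other subunits of the 20S core, 0 were called (edgeR) and 1, Psma4, had an unadjusted p under 0.05, with a median log2 fold change of 0.02. Among 10 activators and assembly genes 2 rose, Psme1 by 0.65 (SE 0.14, adjusted p = 0.0391, edgeR) and Psme2 by 0.61 (SE 0.12, adjusted p = 0.0331, edgeR). They encode the 2 subunits of the interferon-inducible PA28 cap. The other 8 lay between -0.08 (Psmg2) and 0.16 (Psmg4).

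Set against the subunit each replaces, per kb of the principal transcript, Psmb8 stood at 53.8%, 44.2%, 26.5% and 28.9% of Psmb5 in GFP libraries 1 to 4 and at 60.4%, 96.1%, 62.8% and 90.4% in RXRa libraries 1 to 4. Psmb9 stood at 17.5 ± 6.39% of Psmb6 (SD, n = 4) with GFP and at 36.1 ± 9.41% (SD, n = 4) with RXRa. Psmb10 went from 75.8 ± 13.3% of Psmb7 (SD, n = 4) with GFP to 143 ± 20.9% (SD, n = 4) with RXRa. On this scale it had the higher level of the pair in all 4 RXRa libraries and in 0 of the GFP libraries. Which of the pair is higher depends on the lengths used. The principal transcript of Psmb10 has 1311 bases and all its annotated exons together 1705, and the treatment of introns in counting is not given. The ratios did not overlap between the vectors in any of the 3 pairs.

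**Figure D2:**
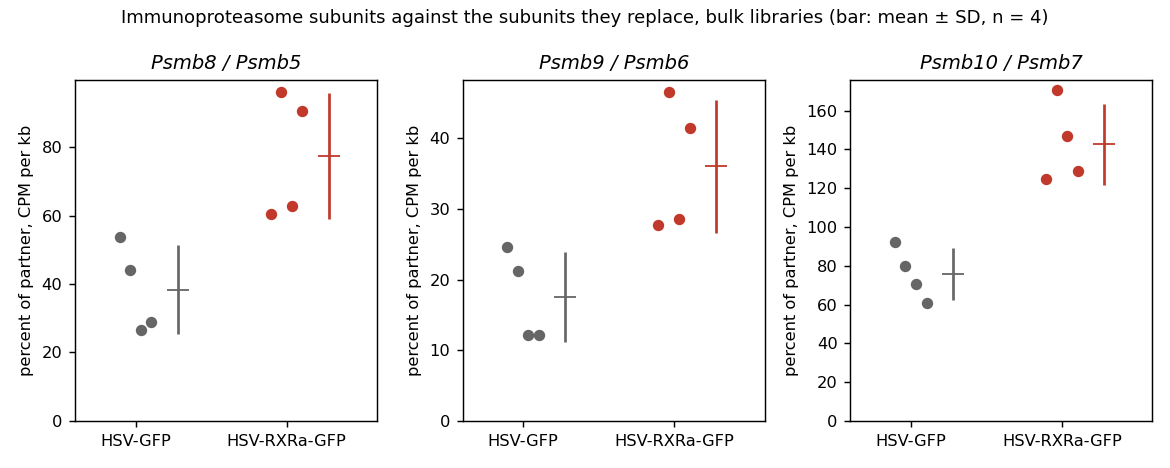
Level of each immunoproteasome subunit as a percent of its constitutive partner, in CPM per kb of principal transcript, for 4 HSV-GFP and 4 HSV-RXRa-GFP bulk libraries (points, replicates 1 to 4 from left to right), with the mean ± SD beside them. Psmb10 reaches 125% to 171% of Psmb7 with RXRa, against 61% to 92.2% with GFP.

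Nlrc5 had the largest log2 fold change of the 10, at 64, 54.13, 32.61 and 32.27 CPM with GFP and 76.3, 137.8, 94.63 and 102.4 CPM with RXRa. It rose by 1.17 (SE 0.25, adjusted p = 0.0399, edgeR), or 2.25 fold. Of 13 other transcription factor genes of class I promoters, 3 rose: Stat2 by 1.10 (SE 0.11), Irf9 by 0.78 (SE 0.10) and Irf2 by 0.55 (SE 0.08). Their adjusted p-values were 0.00689, 0.00901 and 0.0132 (edgeR). STAT2 and IRF9 belong to the complex that binds the ISRE after type I interferon. Irf1 had 1.01 (SE 0.27) with an adjusted p of 0.0776 (edgeR). The subunits of the RFX complex, which NLRC5 needs at class I promoters, lay between -0.18 (Rfxap) and 0.27 (Rfx5), and none was called.

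The non-classical class Ib heavy chains, relatives of H2-K1 and H2-D1, were tested for 13 of 15 genes. Of these 12 were higher with RXRa and 8 rose, with the largest rises in H2-Q7 (1.53, SE 0.25) and H2-Q6 (1.51, SE 0.22) and the smallest adjusted p in H2-T10 (1.38, SE 0.13, adjusted p = 0.00499, edgeR). H2-T22 (1.10), H2-Q4 (1.25), H2-T23 (0.96), H2-T24 (0.91) and H2-M3 (0.86) were the other 5. H2-Q6 and H2-Q7 share 10.8% and 21.9% of their transcripts with other genes, mostly with each other, and H2-T10 and H2-T22 share 11.8% and 14.2%, so how reads were split within each pair is uncertain. H2-Q2 had the lowest value, -0.33 (SE 0.30).

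**Figure D3:**
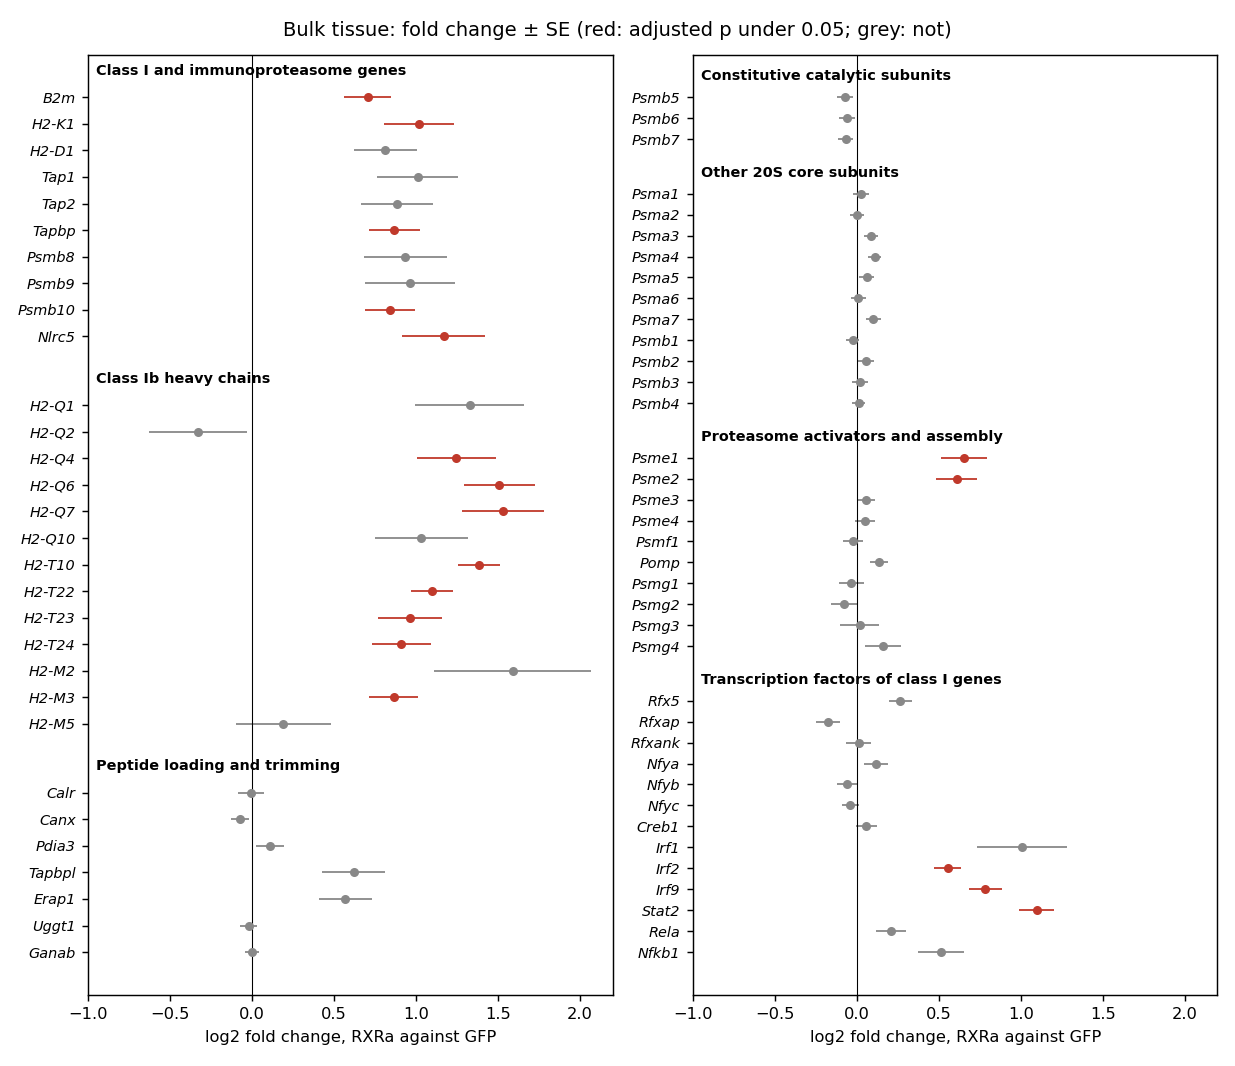
Log2 fold change (RXRa against GFP, bulk, 4 libraries each) with its SE for the 10 genes and the listed genes around them, red where the adjusted p was under 0.05. The class I, PA28 (Psme1, Psme2), Stat2 and IRF genes and all class Ib genes but H2-Q2 lie to the right of 0, while the constitutive and other core subunits lie within 0.11 of it.

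The 10 genes also moved together between libraries of the same vector. Pearson's r of each with the mean of the other 9 was 0.963 (Psmb10) to 0.997 (Nlrc5) over the 8 bulk libraries, and 0.876 (Psmb10) to 0.99 for deviations from the group means. These libraries share depth and tissue pieces across genes, and the values are descriptions. On average the 10 stood 0.47 and 0.25 above the GFP mean on the log2 scale in GFP 1 and 2, and -0.38 and -0.34 from it in GFP 3 and 4. In RXRa 1 to 4 they stood 0.69, 1.28, 0.81 and 1.03 above it. Genes most like the 10 in their pattern over the bulk libraries were Psme1 (r = 0.998), Psme2 (0.997), Ifitm3 (0.996), Il18bp (0.995) and Cd52 (0.994).

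Markers of blood-borne cells moved in the same libraries. Of 8 T cell markers 6 rose in bulk, of them Cd3d by 2.22 (SE 0.44) and Cd8a by 1.67 (SE 0.31). Cd4, the most abundant of the 8, had -0.22 (SE 0.14) and was not called, with 38.2 to 54.8 CPM (GFP) and 33.5 to 49.5 CPM (RXRa). The summed level of all 8 was 52.5 to 68 CPM with GFP and 62.7 to 114 CPM with RXRa. Of 6 NK and cytotoxic markers 5 rose, of them Gzmb by 1.84 (SE 0.26), and the sum was 15 to 18.7 CPM with GFP and 31.1 to 80.4 CPM with RXRa. Of 4 monocyte and neutrophil markers tested 1 rose, Ly6c2 by 2.02 (SE 0.32), while S100a9, at -1.55 (SE 0.50), was not called, with sums over all 6 of 27.8 to 71.7 and 106 to 211 CPM, and Ly6g had 0 counts in every bulk library. Of 7 microglia markers 0 were called (edgeR) and 1 had an unadjusted p under 0.05, with sums of 785 to 1211 and 904 to 1288 CPM.

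By library, the summed NK and cytotoxic markers were 31.1, 80.4, 46.7 and 66.3 CPM in RXRa 1 to 4, the same order as the mean position of the 10 genes. The T cell, B cell, microglia, endothelium and oligodendrocyte sums shared that order, with microglia at 904, 1288, 936 and 1149 CPM. The monocyte and neutrophil, astrocyte and neuron sums did not. Among the GFP libraries the order of the 10 genes, 1, 2, 4 and 3 from high to low, was that of the microglia sum (1211, 1003, 858 and 785 CPM) and of the monocyte and neutrophil sum (71.7, 60.6, 42.2 and 27.8 CPM). The astrocyte sum had that order too (2330, 2105, 1941 and 1809 CPM), while the NK and T cell sums did not. The T cell sum was lowest in GFP 1, but most of it in the GFP libraries was Cd4 (38.2 to 54.8 CPM). In the RXRa libraries the monocyte and neutrophil sum was highest in library 4 (211 CPM) and not in library 2 (204 CPM), where the 10 genes were highest. The part of these cells in the result was not tested.

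Of 5 astrocyte markers 1 rose in bulk, Aqp4 by 0.57 (SE 0.13), and 2 had values below 0. Of 5 endothelium markers 0 were called (edgeR) and 3 had an unadjusted p under 0.05, Emcn with 0.45 (SE 0.12), Pecam1 with 0.40 (SE 0.11) and Tek with 0.25 (SE 0.08). All 5 oligodendrocyte markers had values below 0, with 0 called (edgeR) and 2 at an unadjusted p under 0.05, and their sum was 2580 CPM in RXRa 1 and 4167 to 4551 CPM in the GFP libraries. Of the 5 striatal projection neuron markers 1 fell, Bcl11b by 0.31 (SE 0.07), and of the 4 D2 markers 1 fell, Gpr6 by 0.39 (SE 0.08).

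The number of the 10 genes called in bulk depended on single libraries. It was 10 when GFP 1 was left out and 6 when RXRa 1 was. It was 2 in the absence of GFP 3, 1 in that of RXRa 2, and 0 in that of any one of GFP 2, GFP 4, RXRa 3 and RXRa 4, while the median log2 fold change of the 10 stayed between 0.77 and 1.10. DESeq2 called all 10 and limma voom 6. Calls over all genes moved as well, from 687 in the reported fit to 1598 with DESeq2 and 617 with limma voom. Without GFP 1, 2, 3 and 4 in turn they were 602, 243, 402 and 9. Without RXRa 1, 2, 3 and 4 in turn they were 1016, 333, 295 and 175.

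In control tissue, levels per kb of principal transcript were highest for B2m (409 ± 76.6 CPM per kb; SD, n = 4). H2-K1 (239 ± 74.7) and H2-D1 (236 ± 64.6) followed, and their order changed between libraries. Then came Tapbp (48.5 ± 10.1), Psmb10 (45 ± 9.22) and Tap1 (38.7 ± 14.3). The order of Tapbp and Psmb10 changed between libraries, and both lay above Tap1 in all 4. Psmb8 (26.2 ± 9.44) lay above Psmb9 (20.2 ± 8.02) in all 4 as well. Tap2 (11.9 ± 3.77) and Nlrc5 (6.04 ± 2.10) were lowest. Tap2 was lower than Tap1, its partner in the transporter, in all 4 libraries.

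In sorted nuclei the same genes were near the background of the assay. Their levels there were set against 1576 silent genes, protein-coding genes of at least 5 kb on autosomes with no count in any bulk library. Counts over the gene bodies of these silent genes had a median density of 0.5 CPM per kb in the sorted libraries, with 0.176 and 0.769 as the 5th and 95th percentiles. B2m had 0.514 ± 0.175 CPM per kb of gene body (SD over 35 libraries), Psmb8 0.321 ± 0.1 and Nlrc5 0.527 ± 0.0655. Mean densities of 9 of the 10 genes lay within that range of silent genes, and H2-D1 alone, at 0.862 ± 0.363, lay above it.

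A uniform background at the silent-gene density would give a median of 100% of the level of B2m, 86.2% of H2-K1, 61.5% of H2-D1, 81.5% of Tap1, 112% of Tap2 and 73% of Tapbp. For Psmb8, Psmb9, Psmb10 and Nlrc5 it would give 150%, 109%, 123% and 92.4%. Penk, a marker of D2 neurons, had 91.6 CPM per kb in D2 nuclei by the same measure, and Drd2 had 13.1. In bulk, whose table was scaled apart and comes from poly(A) RNA, B2m had 85.8 and H2-K1 135 CPM per kb of gene body. Where levels sit at the background, values in sorted nuclei do not show expression of these genes, and differences between their groups are differences in counts over the gene.

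**Figure D4:**
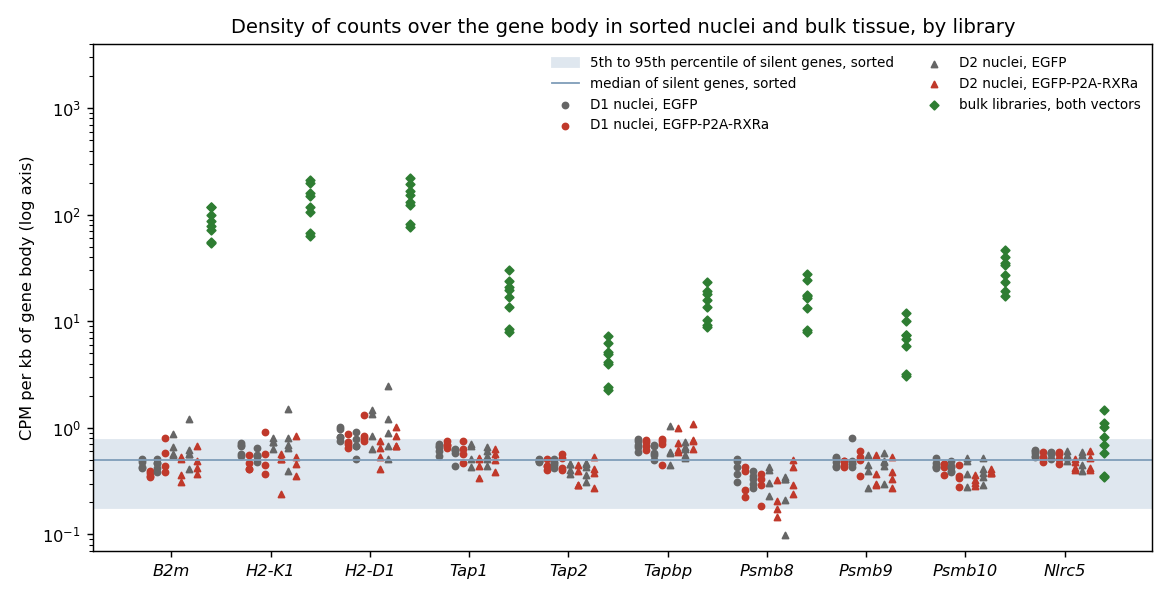
CPM per kb of gene body on a log axis for the 10 genes in each of 35 sorted libraries (circles D1, triangles D2, grey EGFP, red EGFP-P2A-RXRa) and 8 bulk libraries (green), with the 5th to 95th percentile (band) and median (line) of 1576 silent genes in sorted nuclei. The 2 tables were scaled apart. Sorted points of all genes but H2-D1 centre within the band, and bulk points lie far above it except for Nlrc5.

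In D1 nuclei, 0 of the 10 genes were called for RXRa against EGFP over both sexes (edgeR, adjusted p under 0.05), with 0% called among the 43902 genes tested. At an unadjusted p under 0.05 it was 0 of the 10 beside 8.02% of all genes, and DESeq2 and limma voom also called 0. Log2 fold changes ran from -0.27 (Psmb8, SE 0.17) to 0.09 (Tap1, SE 0.10), and 3 of the 10 were above 0. B2m had -0.02 (SE 0.16), H2-K1 -0.19 (SE 0.18) and H2-D1 0.05 (SE 0.20). Within a sex, 0 were called in females and 0 in males (edgeR, with 0% called among all genes), and 0 had an unadjusted p under 0.05 in either, beside 6.29% of all genes in females and 3.02% in males.

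For the light chain in D1 females, every RXRa library (1.86 to 2.14 CPM, n = 4) lay below every EGFP library (2.29 to 2.77 CPM, n = 5), a log2 fold change of -0.35 (SE 0.23). Such separation downwards was seen for 1.42% of genes in that comparison. The silent-gene density in these libraries was 0.379 to 0.493 CPM per kb with RXRa and 0.471 to 0.535 with EGFP, and its part in the difference was not tested. In D1 males B2m had 2.09 to 4.38 CPM with RXRa and 2.06 to 2.78 CPM with EGFP, and the groups overlapped. The difference between male and female effects on B2m, 0.67 (SE 0.32), had an adjusted p near 1 (edgeR), and 0 of the 10 genes were called for it (edgeR, 0% of all genes). B2m was the 1 gene of the 10 with an unadjusted p under 0.05, beside 2.08% of all genes.

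In D2 nuclei, 3 of the 10 genes fell over both sexes, B2m by 0.57 on the log2 scale (SE 0.17, adjusted p = 0.0205, edgeR), H2-K1 by 0.63 (SE 0.20, adjusted p = 0.0262, edgeR) and H2-D1 by 0.68 (SE 0.21, adjusted p = 0.0242, edgeR). All genes called made up 22.1% of those tested in this comparison, 14.9% higher and 7.14% lower, and 37.1% had an unadjusted p under 0.05, as did 3 of the 10. The other 7 genes were not called, from -0.20 (Tap1, SE 0.12) to 0.27 (Tapbp, SE 0.14). Scaling to library totals, in place of TMM, shifted the median of all genes from -0.04 to -0.20, turned the split of all calls from 6548 higher and 3135 lower to 2063 higher and 9325 lower, and called 5 of the 10, all lower.

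B2m had 3.07, 4.68, 3.56 and 2.98 CPM in the 4 D2 female EGFP libraries and 2.77, 2.88, 1.96 and 1.67 CPM in the 4 RXRa libraries, which all lay below. H2-K1 had 3.22, 3.19, 3.44 and 2.72 CPM with EGFP and 2.46, 2.19, 1.03 and 2.22 CPM with RXRa, also without overlap. Separation downwards in D2 females was seen for 3.75% of genes. H2-D1 had 4, 6.95, 6.45 and 3.03 CPM with EGFP and 3.61, 2.54, 1.96 and 3.1 CPM with RXRa, which overlapped. These CPM rest on 19 to 105 counts per library.

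In D2 males B2m had 3.36, 2.23, 3.08, 6.56 and 3.06 CPM with EGFP and 1.99, 2.62, 3.61 and 2.26 CPM with RXRa. H2-K1 had 3.47, 1.71, 3, 6.56 and 2.81 CPM with EGFP and 1.99, 2.33, 3.61 and 1.53 CPM with RXRa. H2-D1 had 5.72, 2.45, 4.29, 11.7 and 3.25 CPM with EGFP and 3.23, 3.98, 4.82 and 3.2 CPM with RXRa. The groups overlapped in all 3 genes, and EGFP replicate 4 was the highest library in each. That library also had the highest summed oligodendrocyte (259 CPM) and astrocyte (189 CPM) markers among the D2 male EGFP libraries. Whether glial RNA plays a part in its class I values was not tested.

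Without that library B2m had -0.39 (SE 0.15, adjusted p = 0.0586, edgeR), H2-K1 -0.44 (SE 0.18, adjusted p = 0.0773, edgeR) and H2-D1 -0.43 (SE 0.17, adjusted p = 0.0773, edgeR) over both sexes. The count of called genes among the 10 was then 0, and it was 0 as well without D2 female RXRa replicate 4 or without D2 male RXRa replicate 5. H2-D1 was also not called without D2 female EGFP replicate 4 (adjusted p = 0.0515, edgeR). The silent-gene density itself was lower with RXRa in D2 nuclei, with medians of 0.527 (EGFP) and 0.463 (RXRa) CPM per kb in females and 0.533 and 0.458 in males. In D1 nuclei its medians were 0.501 and 0.452 in females and 0.512 and 0.5 in males. With that density as a covariate, B2m had -0.46, H2-K1 -0.39 and H2-D1 -0.59, and 0 of the 10 genes and 0 of all genes were called. The unadjusted p was then under 0.05 for B2m, H2-D1 and Tap1 and not for H2-K1.

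Within a sex, 0 of the 10 were called in D2 (edgeR, 0% of all genes; DESeq2 and limma voom also 0). At an unadjusted p under 0.05 there were 6 of the 10 in females, beside 25.2% of all genes, and 3 in males, beside 19.7%. Psmb8 had -0.63 (SE 0.31) in females and 0.50 (SE 0.28) in males, and the difference between the sexes, 1.13 (SE 0.42), had an adjusted p of 1 (edgeR). Psmb8 was the 1 gene of the 10 with an unadjusted p under 0.05 for that difference, beside 3.02% of all genes, and 0 of the 10 were called (0% of all genes).

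**Figure D5:**
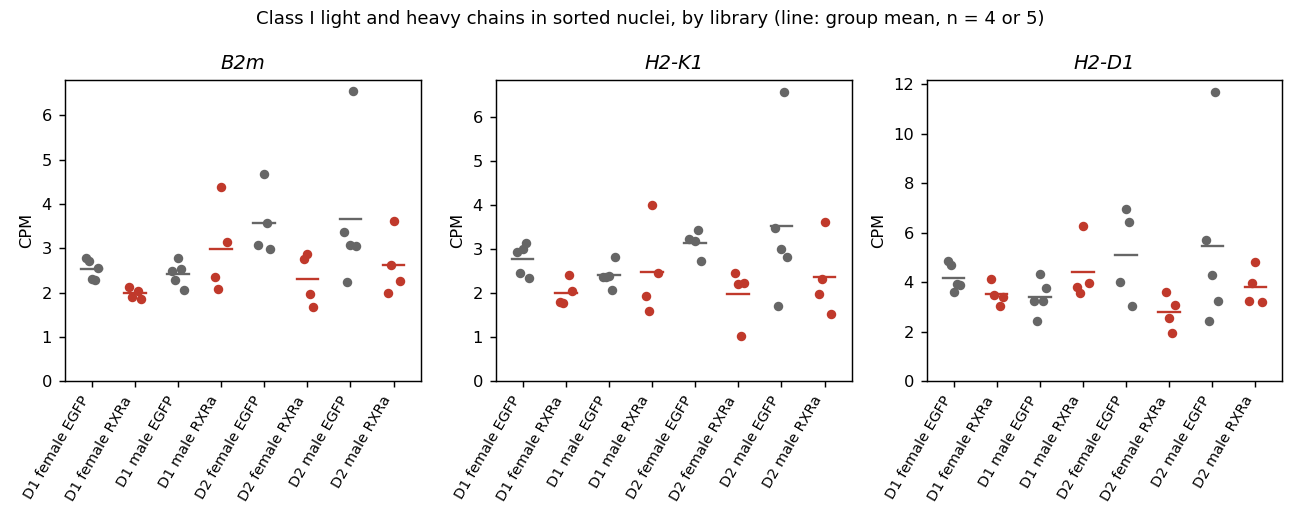
CPM of B2m, H2-K1 and H2-D1 in each sorted library by population, sex and vector (grey EGFP, red EGFP-P2A-RXRa; 4 or 5 libraries a group), with a line at the group mean. In D2 males 1 EGFP library stands high in all 3 genes, at 6.56, 6.56 and 11.7 CPM.

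The difference between the D2 and D1 effects was tested as an interaction, and 0 of the 10 genes were called (edgeR, 0% of all genes; DESeq2 and limma voom also 0). It was -0.55 (SE 0.23) for B2m, -0.43 (SE 0.27) for H2-K1 and -0.73 (SE 0.29) for H2-D1, with adjusted p-values of 0.601, 0.612 and 0.601 (edgeR), and 2 of the 10 had an unadjusted p under 0.05, beside 8.22% of all genes. A fall in D2 that differs from D1 is therefore not shown. Between the populations under EGFP, 0 of the 10 were called (edgeR; 0.121% of all genes; DESeq2 and limma voom also 0) and 3 had an unadjusted p under 0.05, beside 10.5% of all genes. B2m had the smallest p of these, with 0.53 in D2 against D1 (SE 0.15, adjusted p = 0.229, edgeR).

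Most of the other proteasome and peptide loading genes had values of the opposite sign in D2 nuclei, and their calls moved with the scaling. Of 11 subunits of the 20S core 7 rose with RXRa, of them Psma7 by 0.63 (SE 0.20) and Psma1 by 0.47 (SE 0.13), and 2 were called higher under library totals. Of 7 loading and trimming genes 4 rose, Canx by 0.68 (SE 0.21), Pdia3 by 0.47 (SE 0.17), Ganab by 0.39 (SE 0.10) and Uggt1 by 0.17 (SE 0.06), against 2 higher and 1 lower under library totals. Among 10 activators and assembly genes Psme3, Psme4 and Psmf1 rose (2 higher under library totals). Psme1 (0.22, SE 0.16) and Psme2 (0.19, SE 0.10), which rose in bulk, were not called. Of the constitutive Psmb5, Psmb6 and Psmb7, 0 were called (edgeR) and 2 had an unadjusted p under 0.05, and with RLE size factors, those of DESeq2, 2 were called higher.

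Of the 13 transcription factor genes Rfxap, Nfyb, Nfyc and Creb1 rose in D2, and 0 were called lower. These calls became 0 higher and 2 lower under library totals. Among 15 class Ib genes 13 had values below 0, with a median log2 fold change of -0.15. H2-Q7 fell by 0.41 (SE 0.13), H2-M3 fell by 0.28 (SE 0.09) and H2-T24 rose by 0.25 (SE 0.08). Under library totals 0 of the 15 were called higher and 5 lower.

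Some neuron and glia markers moved in the same comparison. Of 5 striatal projection neuron markers 4 rose, as did 3 of 4 D2 markers and 2 of 4 D1 markers. Of 5 astrocyte markers 2 fell, as did 1 of 5 endothelium markers and 1 of 5 B cell markers. Of 7 microglia markers 1 rose and 1 fell. Of 5 oligodendrocyte markers 0 were called (edgeR) and 2 had an unadjusted p under 0.05. Under library totals 3 projection neuron, 1 D2 and 1 D1 markers were called higher. The astrocyte, endothelium, B cell, microglia and oligodendrocyte lists then had 4, 2, 2, 2 and 2 called lower, and microglia 0 higher. T cell, NK and monocyte markers had 0 called of 8, 6 and 6 (edgeR), with 1, 2 and 2 at an unadjusted p under 0.05, and 1, 2 and 2 called lower under library totals. The part of these shifts in the class I values was not tested.

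Across the 35 sorted libraries the 10 genes did not share a pattern as in bulk, with r of each against the mean of the others from -0.21 (Tapbp) to 0.69 (Nlrc5), where libraries share depth and background. Genes most like their mean were Rnf213 (r = 0.871), Oasl2 (0.869), Aldh1a3 (0.85), Oas1b (0.84) and Vsir (0.834).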

How the data were processed

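The deposited tables hold whole-number gene counts, which the authors made from reads of poly(A) RNA (bulk) and of ribosome-depleted total RNA (sorted nuclei). The submitters' processing notes name FastQC, Trimmomatic, HISAT2, Picard, featureCounts, Subread and GRCm38. Versions, annotation release, use of strand and treatment of introns are not given in the sources used here. Symbols and positions came from GENCODE M21, which matched 55394 of the 55487 identifiers and left 93 unmatched.

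Each table was fitted whole with edgeR 4.0.16 (R 4.3.3): filterByExpr by group, TMM scaling and the quasi-likelihood test with 1 coefficient per group. Sorted groups shared 1 estimate of the spread. P-values were Benjamini-Hochberg adjusted over all genes tested, with a threshold of 0.05. SE is the log2 fold change over the square root of F. Levels are CPM on TMM-scaled totals, and per-kb levels divide by the principal transcript (bulk) or the gene body (density). The floor for a count of 0 is 3 counts and covers counting error only.

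DESeq2 1.42.0, limma voom (3.58.1), RLE size factors, library totals, no filter, a replicate block, the silent-gene density as a covariate, and leaving out each library were the alternatives. The procedure was tested on simulated data. The 10 genes and all pathway and marker lists were chosen with earlier results of these data known. The 10 are all named, with genes of the pathway and marker lists and the 5 genes most like their mean by Pearson's r. Of the transcription factor list, 1 gene is not reported here and was left out of its counts. The library with conflicting labels entered no comparison. No 2 replicates agreed within sampling noise.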

Additional observations from a re-analysis of the deposited data

Results flagged for a closer look

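Of 100 groups of values, each 1 gene in 1 group of 4 or 5 libraries, 3 held a library whose gap to its nearest neighbour was a larger share of the group's range than Dixon's 95% critical value allows. Chance gives about 1 in 20 such groups, and all 3 libraries stood high. Psmb9 had 4.64 CPM (53 counts) in D1 male EGFP replicate 2, and the nearest library had 2.82 CPM. H2-D1 had 6.27 CPM (176 counts) in D1 male RXRa replicate 3, where the nearest had 3.97 CPM. B2m had 6.56 CPM (83 counts) in D2 male EGFP replicate 4, against 3.36 CPM in the nearest.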

How the results depend on the processing

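In bulk the count of the 10 genes called, 5, became 10 with no filter, where 888 of all genes were called against 687. It became 10 with DESeq2 and 0 with the replicate block. When 1 library was left out it ran from 0 to 10, with 9 to 1016 of all genes called. In D2 over both sexes the count of 3 became 5 under library totals and 0 with the silent-gene density as a covariate, and ran from 0 to 4 when 1 library was left out. All 10 bulk fold changes stayed above 0 in every alternative run. Of the calls over all genes in bulk, 81.4% were higher, against 70.1% with DESeq2 (1598 genes called) and 89.8% under library totals. Whether replicate numbers pair the samples could not be decided. Same-numbered bulk libraries had correlations of -0.67, 0.16, 0.65 and 0.03 between their deviations from the group means. In sorted nuclei those of same-numbered EGFP and RXRa libraries ran from -0.75 (D1 male, replicate 3) to 0.89 (D2 male, replicate 1). Groups this small cannot exclude pairing. The block took the bulk calls over all genes from 687 to 0 and those of D2 from 9683 to 8532. Some values changed sign, none of them called in the reported fit. The one farthest from 0 was Tapbp in D2, 0.27, which became -0.011 with the covariate and was called without D2 female EGFP replicate 3. H2-K1 in D1 males was -0.0032 with limma voom and -0.28 to 0.24 on leaving out a library. Over both sexes in D1, H2-D1 was -0.017 under library totals (-0.068 to 0.096 on leaving out a library), B2m was 0.014 with the block and 0.038 with the covariate (-0.15 to 0.048), and Psmb9 ran from -0.089 to 0.034. With the covariate Tap2 was 0.030 and Tapbp -0.065 in D1, and Tap2 was 0.020 in D2. Psmb8 in D2 ran from -0.25 to 0.0013. The cause was not tested. Sorted values rest on few counts, down to 5 for Psmb8 in 1 library.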

Other observations

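The library with conflicting labels, from D2 female nuclei with 15630501 counts, held 2941 counts of the vector's RXRa sequence, against 0 to 17 in the 19 sorted EGFP libraries and 1216 to 13017 in the 16 RXRa libraries. Its vector label names EGFP without RXRa, and it was put in no group, since groups were taken from labels and not from values. It had 1.98 CPM of B2m, 3.26 CPM of H2-K1 and 3.07 CPM of H2-D1, relative to its library total. On that scale the D2 female EGFP libraries had 3.06 to 4.8, 2.8 to 3.6 and 3.11 to 7.12 CPM of the 3 genes, and the RXRa libraries had 1.54 to 2.96, 0.813 to 2.32 and 1.54 to 3.41 CPM.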
